A study of Mus musculus with 77 samples.

Results

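Macrophages from 7 mouse organs were compared by their microRNA (miRNA) content: lung, liver, gut, spleen, kidney, muscle and heart, with 1 library each. These were the libraries of the numbered miRNA set whose labels give the cell type macrophage, 7 of the 36 miRNA libraries and of the 77 samples in the series, which was made to find what sets microglia apart from other cells. All came from C57BL/6 mice, with no treatment and no genetic change given. The design text says that immune cells were obtained by flow sorting, but the labels give no sort markers, age, sex or number of animals for the organ macrophages. The nCounter assay counts fluorescent barcodes bound to single miRNA molecules, without amplification, over 566 mouse miRNA probes. With 1 library per organ no test between organs could be made. Every difference below is therefore a difference between these libraries, and nothing in them separates organ from animal, preparation or assay run.

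miRNAs are short RNAs that guide Argonaute proteins to messenger RNAs, mostly through the seed near the 5′ end, and lower the output of the messages they pair with. Macrophages share a blood cell set of miRNAs, among them miR-223, miR-142, miR-146a, miR-155 and miR-21, which act in myeloid maturation and in the control of inflammatory signalling. Resident macrophages also take on properties of the organ they live in, and a cell sort from a solid organ can carry RNA of neighbouring cells. In bulk samples such as these, fewer cells of a type and less RNA per cell cannot be told apart.

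The mature sequences of the miRNAs on which the comparisons turn are given first, from RefSeq (GRCm38.p6), 5′ to 3′, with the seed (bases 2 to 8) in capitals. The let-7 members are shown because 4 of them were above background in every organ and let-7g set the lung apart. These 5 carry the seed GAGGUAG, as do let-7a and let-7b:
let-7c: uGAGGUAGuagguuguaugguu
let-7d: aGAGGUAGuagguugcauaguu
let-7e: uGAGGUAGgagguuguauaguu
let-7f: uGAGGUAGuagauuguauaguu
let-7g: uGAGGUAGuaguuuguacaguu

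The next set led in lung macrophages, and miR-24 is shown because it is encoded beside miR-23a and miR-27a. miR-23a (chr8:84208563-84208583, plus strand), miR-27a (chr8:84208727-84208747) and miR-24 (chr8:84208875-84208896) lie within 334 bases of each other, and miR-223 lies at chrX:96242884-96242905 on the plus strand:
miR-23a: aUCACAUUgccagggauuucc
miR-27a: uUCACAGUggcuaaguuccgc
miR-24: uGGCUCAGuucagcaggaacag
miR-223: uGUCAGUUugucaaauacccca

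miR-126-3p (chr2:26591402-26591423, plus strand, within the gene Egfl7) had the widest range between organs. miR-155 (chr16:84714143-84714165, plus strand), miR-543 (chr12:109717304-109717325, plus strand) and miR-376a (chr12:109723824-109723844, plus strand) were highest in the gut library, and miR-208a (chr14:54949072-54949093, minus strand) in the spleen library:
miR-126-3p: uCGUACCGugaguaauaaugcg
miR-155: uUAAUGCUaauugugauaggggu
miR-543: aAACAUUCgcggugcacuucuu
miR-376a: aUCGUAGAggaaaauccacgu
miR-208a: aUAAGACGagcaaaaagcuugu

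The 2 arms of the blood cell miRNA miR-142 are shown because they behaved differently across the organs:
miR-142-5p: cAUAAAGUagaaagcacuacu
miR-142-3p: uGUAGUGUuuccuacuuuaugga

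Probe names without an arm were matched to the arm that older miRBase releases gave the plain name, since the files hold no probe sequences. In all, 34 of 38 miRNAs looked up were matched. miR-34c, miR-150, miR-126-5p and miR-2183 are named only.

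The libraries were shallow and unequal, and 2 of them stood apart. Recovered barcode counts came to 7148 in lung, 1741 in liver, 3408 in gut, 4399 in spleen, 5849 in kidney, 3407 in muscle and 4285 in heart. The deposited values are counts times 1 factor per library, so 1 count was worth 1.72 signal units in kidney and 8.53 in liver, 4.96 times as much. The background limit of a library was set at the mean plus 2 SD of its 33 probes for viral miRNAs, which serve as negative controls here. It lay at 10.9 units in lung, 38.0 in liver, 33.9 in gut, 11.3 in spleen, 7.31 in kidney, 29.1 in muscle and 22.0 in heart, or 4.25 to 5.85 counts. Above it were 151 mouse miRNAs in kidney (26.7%), 120 in spleen (21.2%), 112 in lung (19.8%), 103 in heart (18.2%), 73 in muscle (12.9%), 70 in gut (12.4%) and 62 in liver (11%). Between 1 and 3 of the 33 viral probes (3.03% to 9.09%) passed the same limit. At that rate of the 566 mouse probes, 34.3 would pass in liver beside the 62 seen, 51.5 in gut beside 70 and 51.5 in spleen beside 120. In lung it would be 34.3 beside 112, in heart 34.3 beside 103, in muscle 17.2 beside 73 and in kidney 17.2 beside 151. Part of every list may thus be background, and possibly a large part, most of all at these rates in gut, liver and spleen. The rates rest on 1 to 3 of the same viral probes that set the limits, so they do not rank the libraries.

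The gut library stood apart in its composition. The mRNA probes, which read Actb, B2m, Gapdh and Rpl19, lay above the limit in the 6 other organs and below it in gut, where Actb had 23.0 units (3 counts) against 308 to 1184 elsewhere. A single probe, miR-34c, took 46.4% of the gut library's mouse miRNA counts (exact 95% binomial interval 44.7% to 48.1%). Its share was 36.8% in muscle, 31.4% in heart, 14.2% in spleen, 9.02% in kidney, 6.43% in lung and 4.38% in liver. The liver library stood apart in depth, with the fewest counts of the 7. Its highest probe was miR-126-3p, that of lung was miR-223, and in the 5 other organs it was miR-34c. Calls, shared miRNAs and most of the ranges that rest on gut or liver are given below with and without them. All intervals in the text cover counting error only.

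**Figure D1:**
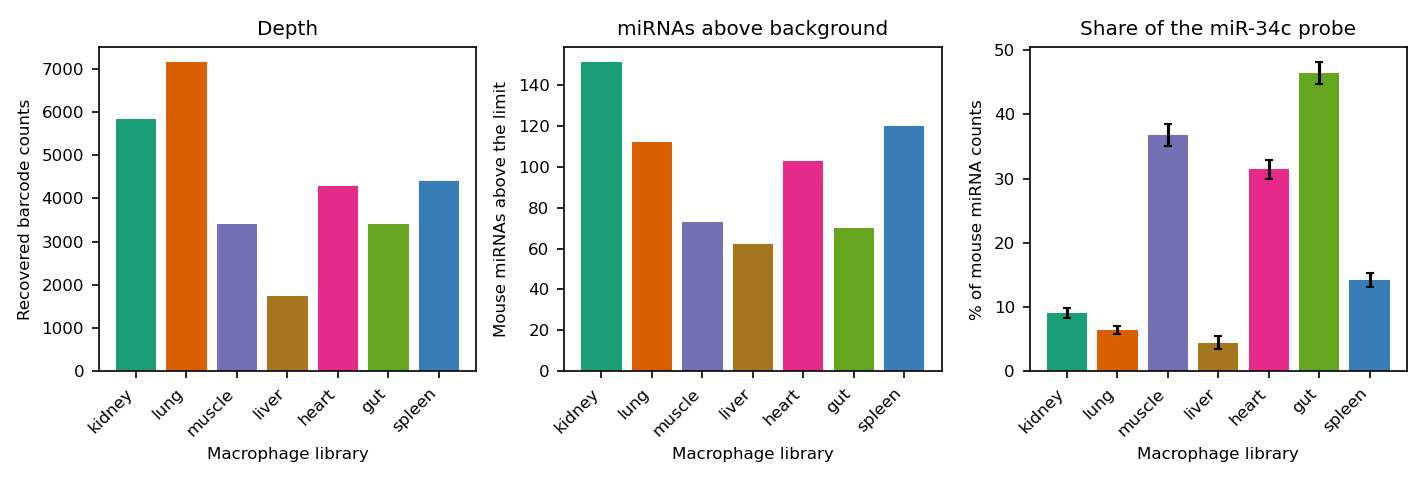
Depth and composition of the 7 macrophage libraries. The bars give, from left to right, the recovered barcode counts over all probes, the number of mouse miRNAs above the library's background limit, and the share of the miR-34c probe in mouse miRNA counts (%, with exact 95% binomial intervals); liver had 1741 counts and 62 miRNAs above the limit, and the miR-34c share ran from 4.38% in liver to 46.4% in gut.

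Across the 7 organs the macrophages shared few miRNAs at this depth. Of the 566 mouse miRNAs, 13 (2.3%) were above the limit in every library, and 4 of these were let-7 members. A further 13 were above it in 6 libraries, 20 in 5, 24 in 4, 38 in 3, 59 in 2 and 94 in 1, and 305 were above it in none. The 94 seen in a single library had 5 to 11 counts there (median 6), close to the limit. The 13 shared miRNAs took 24.2% of mouse miRNA counts in lung, 14.7% in liver, 58.2% in gut, 29.5% in spleen, 26.2% in kidney, 47.4% in muscle and 43.5% in heart. The group depended on the limit, which was also set at the mean plus 3 SD, at the highest viral probe, or alike for all libraries. let-7e, miR-1944 and the miR-20a and miR-20b probe, with as few as 5 counts in a library, were lost under each of these. let-7c was lost at the mean plus 3 SD and at the highest viral probe. miR-16 was lost at the highest viral probe, and miR-142-5p and miR-202-5p with 1 limit for all.

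miR-34c, which belongs to a p53-induced family and is known from testis and ciliated epithelium, was the most variable of the shared miRNAs. It had 11874 units in gut, 6669 in muscle, 4670.2 in heart, 1468 in spleen, 816 in kidney, 697 in lung and 555 in liver, a range of 21.4-fold (12.0 without gut, 9.56 without gut and liver). The first 3 organs of that order thus lay clear of the other 4. miR-34b, which is encoded beside it, did not show the same spread: miR-34b-3p was above the limit in muscle (33.6), heart (26.8) and lung (11.2) and under it in gut (15.4, limit 33.9). miR-449a, a family relative of miR-34c, was above the limit in none of the 7 libraries.

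miR-543, from the imprinted Dlk1-Dio3 region, ranked the organs in nearly the same way. Its values were 1266 in gut, 649.6 in muscle, 592 in heart, 278 in spleen, 256 in liver, 205 in lung and 107 in kidney. miR-155, which activated macrophages induce, had 837 units in gut, 386 in muscle, 271 in heart, 265 in spleen, 177 in kidney, 145 in lung and 111 in liver. The range of miR-543 was 11.9-fold, and 6.09 without gut, and that of miR-155 was 7.54-fold, and 3.48 without gut. Both were highest in the gut, muscle and heart libraries, those with the largest miR-34c share.

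let-7e and let-7f were the most even of the shared group. let-7e had 37.3 units in lung, 42.7 in liver, 53.7 in gut, 43.7 in spleen, 37.9 in kidney, 33.6 in muscle and 42.0 in heart. That is a range of 1.60-fold (1.30 without gut) on 5 to 22 counts, down to 1.12 times a library's limit. let-7f ran from 60.2 in kidney to 119 in liver (1.98-fold, 1.49 without liver, 11 to 36 counts). let-7d, at 448 in lung, 282 in kidney, 214 in heart, 165 in spleen, 128 in liver, 115 in gut and 106 in muscle, ranged over 4.21-fold. let-7c likewise peaked in lung, at 173, with its lowest value, 41.1, in spleen.

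The remaining shared miRNAs include members of the miR-15/16 family and the miR-17-92 cluster and its paralogues, both known from the control of cell division and survival. miR-16 was highest in kidney (296) and lowest in liver (51.2), a 5.78-fold range that was 1.89 without liver. The probe that reads miR-20a and miR-20b together, which share the seed AAAGUGC, was highest in lung (326) and lowest in heart (26.8), a 12.2-fold range. miR-142-5p had 184 units in gut, 179 in muscle, 145 in liver, 72.6 in heart, 51.4 in spleen, 46.6 in lung and 31.0 in kidney. In counts these were 17 to 32, a narrower range than the 5.95-fold one in signal (5.79 without gut). miR-202-5p likewise had 10 to 18 counts, but 17.2 units in kidney against 111 in liver (6.45-fold, 4.46 without liver). miR-200b, best known from epithelium, had 14 to 41 counts and ran from 43.7 units in spleen to 162 in liver (3.71-fold, 2.69 without liver). miR-1944 was highest in kidney (236) and spleen (213) and lowest in muscle (33.6).

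**Figure D2:**
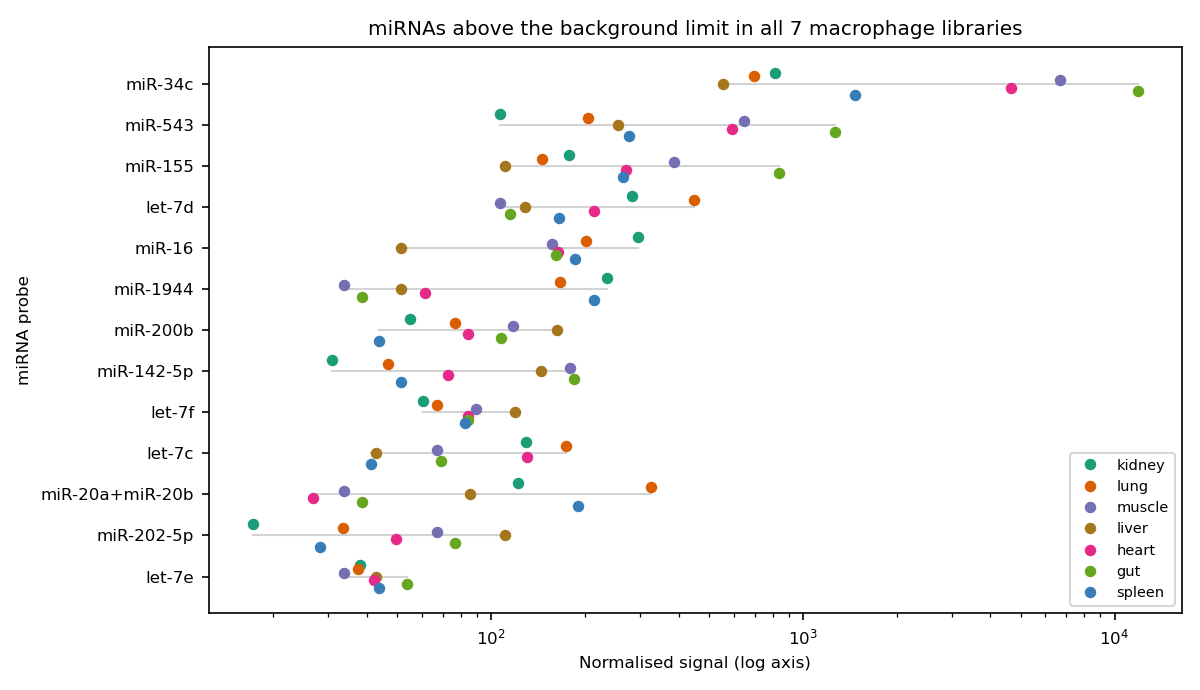
Signal of the 13 miRNAs above the background limit in all 7 libraries. Each point is 1 organ's library on a log axis of normalised signal, and each grey line spans the lowest to the highest; miR-34c spans 555 to 11874 units, and let-7e spans 33.6 to 53.7.

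The miRNAs missed in a single organ fell mostly in the libraries that stood apart. let-7g, miR-125b-5p, miR-15b and miR-23a were above the limit everywhere but gut. miR-23a had 7.68 units in gut, which is 1 count, against 67.2 to 511 in the other organs, and let-7g had 15.4 units in gut against 129 to 481. let-7a, let-7b, miR-21, miR-376a, miR-466g and miR-720 were above the limit everywhere but liver. Of those, let-7a, let-7b, miR-466g and miR-720, had 34.1 units in liver (4 counts), just under its limit of 38.0. miR-467e was missing in heart only, miR-669h-5p in muscle only, and miR-1929 in lung only, where it had 1.86 units (1 count) against 26.8 to 42.7. Without liver the shared group held 19 miRNAs, and without gut 17. With both left out it held 28, the further ones being let-7a, let-7b, let-7g, let-7i, miR-125b-5p, miR-150, miR-15b, miR-1839-5p, miR-21, miR-23a, miR-25, miR-376a, miR-466g, miR-532-5p and miR-720.

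A miRNA was called high in an organ when it lay above that library's own limit and at least 2-fold above the highest of the 6 other organs, each raised to its own limit. In all, 14 of 566 miRNAs (2.47%) met this in some organ. Lung had 5 (0.883%), liver 5 (0.883%), gut 2 (0.353%) and spleen 2 (0.353%), while kidney, muscle and heart had 0 each (0%). Just inside the threshold lay miR-1941-3p, miR-1943 and miR-669f in liver, all 2.01-fold, and just outside it miR-543 in gut (1.95-fold), miR-466g in gut (1.95-fold) and miR-146a in kidney (1.89-fold).

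On the deposited scale, lung macrophages were the best separated by the intervals of the ratios, with miR-23a, miR-150, miR-27a, miR-223 and let-7g. miR-23a had 511 units in lung (274 counts), against 153 in heart, 131 in kidney, 72.0 in spleen, 68.3 in liver, 67.2 in muscle and 7.68 in gut. Lung was 3.34-fold above heart (95% interval 2.39 to 4.78). miR-27a had 144 units in lung, against 55.1 in kidney, 42.7 in liver, 42.0 in heart, 36.0 in spleen, and values under the limit in muscle (16.8) and gut (7.68). That put lung 2.61-fold above kidney (1.71 to 4.07), and between kidney and spleen each neighbouring pair's interval included 1. miR-23a and miR-27a come from the same primary transcript as miR-24, but miR-24 was under the limit in all 7 libraries, at 9.32 units (5 counts) in lung. Of the paralogous cluster, miR-23b was above the limit in lung (42.9) and kidney (10.3), and miR-27b in none.

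miR-150 and miR-223 are the blood cell miRNAs of the lung group. miR-150, abundant in mature lymphocytes, had 160.4 units in lung, against 61.2 in heart, 41.3 in kidney, 33.6 in muscle, 25.7 in spleen, 8.53 in liver and 7.68 in gut. Lung was 2.62-fold above heart (1.53 to 4.79), and liver and gut each had 1 count. miR-223, a regulator of neutrophil and monocyte maturation, had 888 units in lung, against 406 in spleen, 342 in kidney, 129.9 in heart, 76.8 in liver, and values under the limit in gut (30.7) and muscle (16.8). Lung exceeded spleen 2.18-fold (1.82 to 2.63). Spleen and kidney did not separate (1.19-fold, 0.957 to 1.47), nor did heart and liver (1.69-fold, 0.795 to 4.01). let-7g had 481 units in lung, against 234 in kidney, 222 in heart, 162 in liver, 157 in spleen, 129 in muscle and 15.4 in gut, which put lung 2.06-fold above kidney (1.66 to 2.55). From kidney to muscle no neighbouring pair separated, but kidney (196 to 277) lay above muscle (81.6 to 193) by their counting intervals.

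Of the 5 lung calls, miR-23a was made in all 17 alternative settings that could give it. Some of these could not lose a call: leaving out another organ, 1.5-fold, and not raising the other organs. miR-23a was also kept in those that could, which changed the limit, the scale or the subtraction, or raised the fold to 3. miR-150 and miR-27a were lost only at 3-fold. miR-223 was lost in 3 settings and let-7g in 4, among them scaling to the shared miRNAs, where the lung ratio of let-7g was 1.66. The lead of lung depended on the scale: with libraries at the same total it had 4 calls against 23 in liver, at the same level of the shared miRNAs 3 against 17 in liver, and at the same total without miR-34c 3 against 6 in spleen. Leaving out gut or liver could not end a lung call, since it only removes an organ that lung is compared with. The next organ of each lung call was heart, kidney or spleen. Without liver, miR-126-3p was called in lung as well, and without kidney let-7d, miR-125a-5p and miR-22 were. The lung library was the deepest and had the highest Actb and B2m values (1184 and 554 units). The part of these in the lung calls was not tested.

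The 5 liver calls rested on few counts. miR-669j, from a large miRNA cluster in an intron of Sfmbt2, had 93.9 units in liver (11 counts), against 46.1 in gut and 44.8 in muscle, and no more than 15.4 in the 4 other organs. The ratio to gut was 2.04 with an interval of 0.691 to 6.71, which includes 1. miR-704 had 76.8 units in liver (9 counts), at least 2.27-fold above the gut limit. miR-1941-3p, miR-1943 and miR-669f each had 68.3 units in liver (8 counts, interval 29.5 to 134), at least 2.01-fold above the gut limit. With a limit at the mean plus 3 SD, miR-669j was the liver call that was left. Requiring the interval of the ratio to exclude 1 left none. Scaling every library to the same total gave 23 liver calls, so the number of liver calls depended on the scale. The liver-cell miRNA miR-122 was above the limit in liver alone, at 51.2 units (6 counts, limit 38.0). Its part in the liver values was not tested.

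Gut macrophages had 2 calls, miR-155 and miR-376a. miR-155, with the values given above, was 2.17-fold higher in gut than in muscle (1.59 to 2.97). miR-376a, which is encoded 6541 bases from the start of miR-543 to its own end in the Dlk1-Dio3 region, had 177 units in gut (23 counts), against 84.0 in muscle and 76.4 in heart, 61.7 in spleen, 31.0 in kidney, 24.2 in lung and 17.1 in liver (under its limit), and was 2.10-fold above muscle (1.05 to 4.33). Both calls were lost when libraries were scaled to the total signal, to the total without miR-34c, or to the shared miRNAs. miR-155 under total scaling was 1.28-fold above the next organ. A further 4 probes led in gut by close to the same factor over muscle: miR-543 by 1.95, miR-466g by 1.95, let-7a by 1.83 and miR-34c by 1.78. The median ratio of gut to muscle over the 39 miRNAs above both limits was 1.14, and the single ratios ran from 0.762 to 2.17. Set against 100 miR-34c counts of the same library, miR-155 had 7.05 counts in gut, 5.79 in muscle, 5.81 in heart and 18.0 to 21.7 in spleen, kidney, lung and liver. These figures fall where the miR-34c share is large, as in gut, muscle and heart, so they do not rank the organs for miR-155. As a share of all mouse miRNA counts, miR-155 was highest in gut, at 3.27%. It took 2.56% in spleen, 2.13% in muscle, 1.96% in kidney, 1.83% in heart, 1.34% in lung and 0.877% in liver. The low mRNA values of the gut library stand beside these calls, and their part in them was not tested.

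Spleen macrophages had 2 calls, miR-2183 and miR-208a. miR-2183 had 229 units in spleen (89 counts), against 79.2 in kidney, 69.1 in gut, 42.7 in liver, 22.4 in muscle, 15.3 in heart and 9.32 in lung. Spleen was 2.89-fold above kidney (2.00 to 4.22), and the call was lost only at 3-fold. miR-208a, which is encoded within the cardiac myosin gene Myh6 and known from heart muscle, had 95.2 units in spleen (37 counts) and 43.0 in kidney (25 counts), and was under the limit in the 5 other organs, heart included, where it had 3.82 units (1 count). The spleen to kidney ratio was 2.21 (1.30 to 3.83). The call was lost at 3-fold and with the limit at the mean plus 3 SD or at the highest viral probe. Scaling to the total or to the shared miRNAs lost it too. The related miR-208b and miR-499, and miR-133a and miR-133b, all known from striated muscle, were above the limit in none of the 7 libraries. Without kidney, miR-380-3p and miR-669h-5p were called in spleen as well. Leaving out gut or liver could not end a spleen call, since it only removes an organ that spleen is compared with.

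Kidney, muscle and heart macrophages had no call, though some miRNAs peaked there. miR-146a, a feedback inhibitor of Toll-like receptor signalling, had 170.4 units in kidney, against 90.0 in spleen, 53.7 in gut, 26.1 in lung, and values under the limit in liver (25.6), heart (19.1) and muscle (16.8). Kidney was 1.89-fold above spleen with an interval of 1.28 to 2.87, and a call was made there under all 3 re-scalings. miR-720, since withdrawn as a miRNA because it is a tRNA fragment, had 463 units in kidney, 1.55-fold above spleen, and miR-125b-5p had 119, 1.48-fold above heart. In muscle, miR-881, miR-532-5p and miR-708 each had 50.4 units (9 counts), at least 1.33-fold above the liver limit. Heart led least, with miR-151-5p at 42.0 units (11 counts), at least 1.11-fold above the liver limit. In all, heart was both highest and above its limit for 3 miRNAs, kidney for 11, lung and muscle for 14 each, spleen for 23, liver for 37 and gut for 40. The 2 organs with the most were also those where 1 count was worth most (8.53 and 7.68 units). Leaving gut and liver out gave muscle 8 calls, spleen 5 and lung 6, and kidney and heart still 0.

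**Figure D3:**
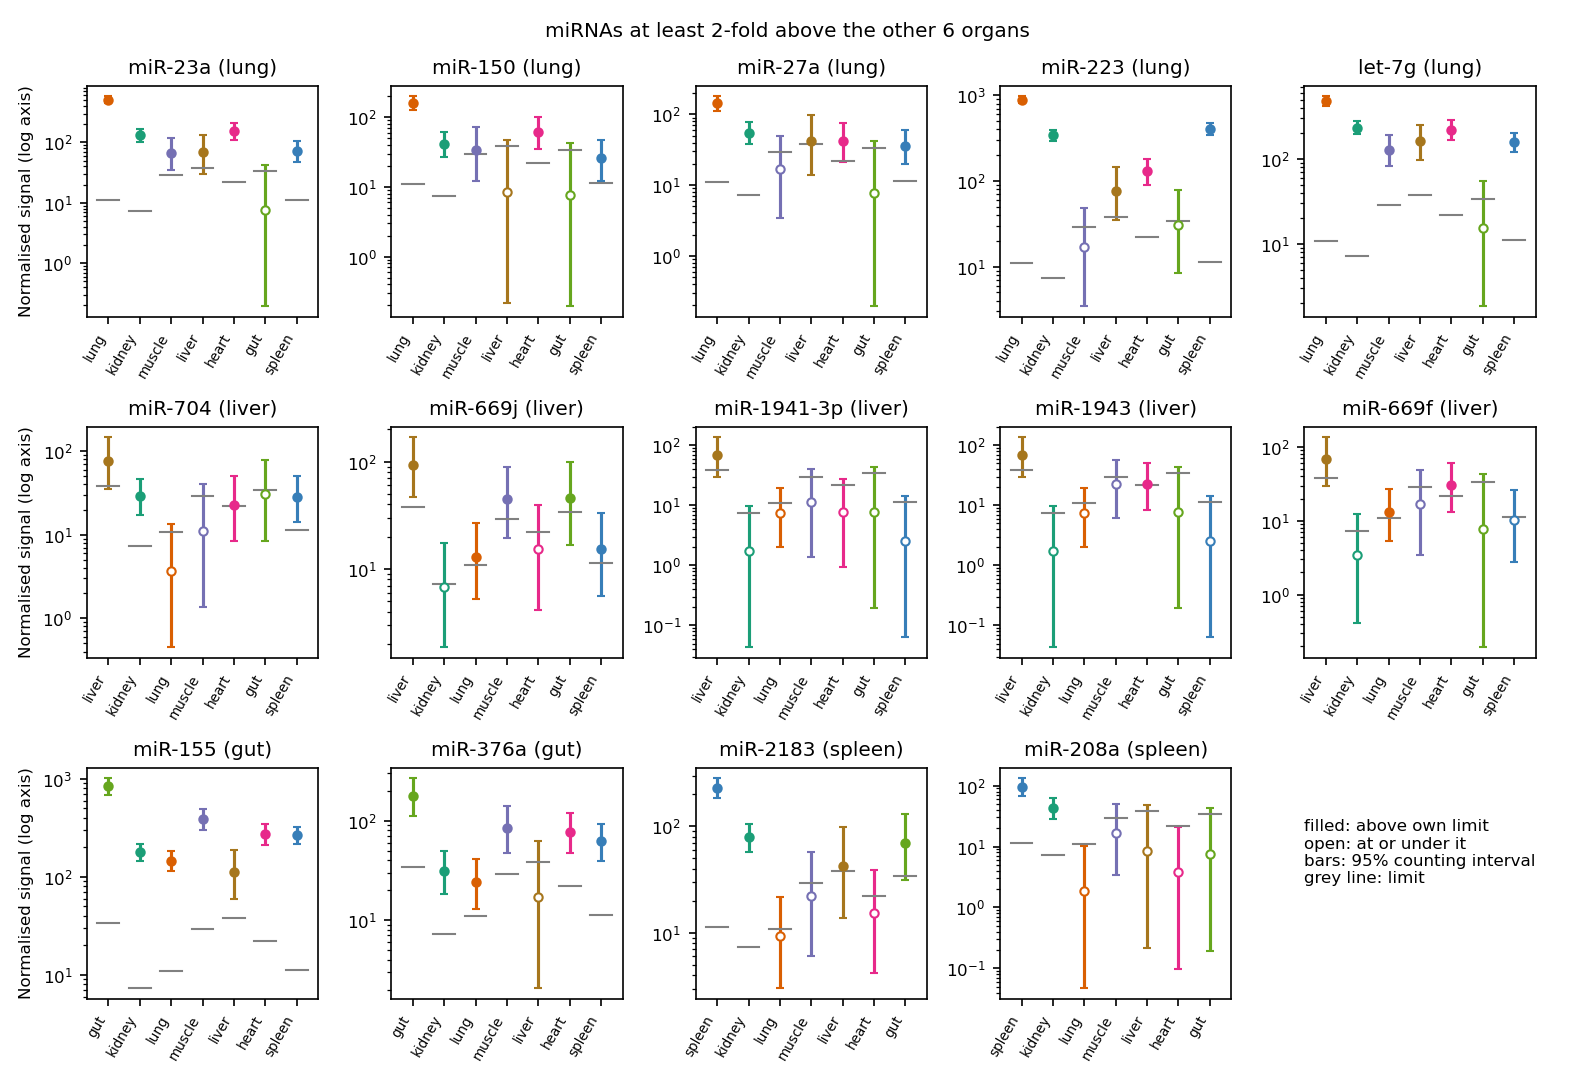
Signal of the 14 miRNAs called high in an organ, by library. Each panel has a log axis of normalised signal with the organ of the call at the left; bars are exact 95% counting intervals, grey lines the library's background limit, and open points lie at or under it. In the lung row (miR-23a at 511 units against 153 in heart) the bar of lung clears those of the other organs, and in the liver row the bar of liver overlaps that of gut.

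The widest ranges were those of miR-126-3p and miR-223. miR-126-3p, an endothelial miRNA that regulates vessel integrity, had 751 units in lung, 572 in liver, 375 in heart, 119 in kidney and 118 in muscle, and was under the limit in gut (23.0, 3 counts) and spleen (5.14, 2 counts). With values raised to the limits, the range was 66.6-fold. Lung exceeded liver 1.31-fold (1.01 to 1.73), liver exceeded heart 1.53-fold (an interval that excludes 1), heart exceeded kidney 3.15-fold (2.29 to 4.36), and kidney and muscle did not separate (0.612 to 1.73). The other arm, miR-126-5p, was above the limit in lung (48.5) and heart (38.2) and at 34.1 (4 counts), under the limit, in liver. miR-223 had the next widest range, 30.5-fold, and the 2 miRNAs did not order the organs alike: spleen was under the limit for miR-126-3p and next to lung for miR-223, whereas muscle and liver were above it for miR-126-3p at 118 and 572 units, with miR-223 under the limit in muscle and at 76.8 in liver. Next in width came miR-34c (21.4-fold), miR-2183 (21.0), miR-23a (15.1), let-7g (14.2), miR-101b (14.0), miR-199a-3p (12.8), miR-669j (12.8) and the miR-20a and miR-20b probe (12.2). Without gut, miR-23a ranged over 7.60-fold and let-7g over 3.74-fold. Without liver, miR-199a-3p ranged over 6.79-fold and miR-669j over 6.30-fold, and without both miR-101b over 5.36-fold. miR-101b was highest in liver (102, 12 counts) and under the limit in kidney (6.88) and heart (15.3).

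Against the macrophage label, the 6 blood cell miRNAs miR-223, miR-142-3p, miR-142-5p, miR-146a, miR-155 and miR-21 were all above the limit in lung, spleen and kidney. Of the 6, 4 were above it in heart, 4 in gut, 3 in muscle and 3 in liver. Over all mouse miRNAs the share above the limit was 19.8% in lung, 21.2% in spleen, 26.7% in kidney, 18.2% in heart, 12.4% in gut, 12.9% in muscle and 11% in liver, so the marker counts had nearly the order of the libraries' own lists. Their summed signal was 1328 in lung, 392 in liver, 1174 in gut, 1124 in spleen, 919 in kidney, 644 in muscle and 550.3 in heart. miR-155 and miR-142-5p were above the limit in all 7. miR-142-3p had 87.4 units in spleen, 54.1 in lung and 48.2 in kidney, and was under the limit in heart (15.3), muscle (11.2), liver (8.53) and gut (7.68). miR-21, induced in many stressed and inflamed cells, had 224 units in spleen, 168 in lung, 149.7 in kidney, 61.4 in gut, 42.0 in heart and 33.6 in muscle, and 25.6 under the limit in liver. The macrophage label itself comes from the sample titles and was not tested by these miRNAs. In muscle and gut, miR-223 and miR-142-3p were both under the limit. The blood cell miRNAs above it there were miR-155, miR-142-5p and miR-21, and in gut miR-146a too. Some of these rested on few counts: miR-21 had 6 in muscle and 8 in gut, and miR-146a had 7 in gut. miR-142-5p had 17 to 32 counts over the 7 libraries, which did not follow depth. It had 17 in liver, 25 in lung and 32 in muscle, where all probes together had 1741, 7148 and 3407.

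Markers of other cells were present unevenly. The 2 endothelial arms summed to 800.0 units in lung, 606 in liver, 413 in heart, 134 in muscle, 120.5 in kidney, 30.7 in gut and 7.71 in spleen. Of the 3 erythroid markers, miR-451 was above the limit in spleen (66.9), heart (61.2), kidney (55.1) and lung (18.7), miR-486 in lung (11.2) and miR-144 in none. Of the 5 fibroblast and smooth muscle markers, miR-199a-3p was above it in liver (93.9), heart (49.7), gut (38.4) and lung (37.3), and miR-145 in heart (22.9), lung (22.4) and kidney (12.0), while miR-143, miR-199a-5p and miR-214 were in none. Their part in the organ differences was not tested.

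Among the 6 epithelial markers, miR-200b was above the limit in all 7 libraries and miR-205 in 5, with miR-200c in kidney (12.0) and gut (38.4), miR-429 in kidney (29.3) and gut (38.4), miR-141 in muscle (44.8) and gut (61.4), and miR-200a in kidney (12.0). The gut and kidney epithelial marker miR-194 was above it in gut alone (53.7, 7 counts), miR-204 in kidney (8.60), lung (11.2) and spleen (20.6), and miR-192 in none. Of the 7 striated muscle markers, miR-1 was above it in gut (38.4), heart (34.4) and muscle (33.6), and miR-206 in liver (42.7, 5 counts). The values of miR-1, miR-194, miR-204 and miR-206 rested on 5 to 9 counts.

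**Figure D4:**
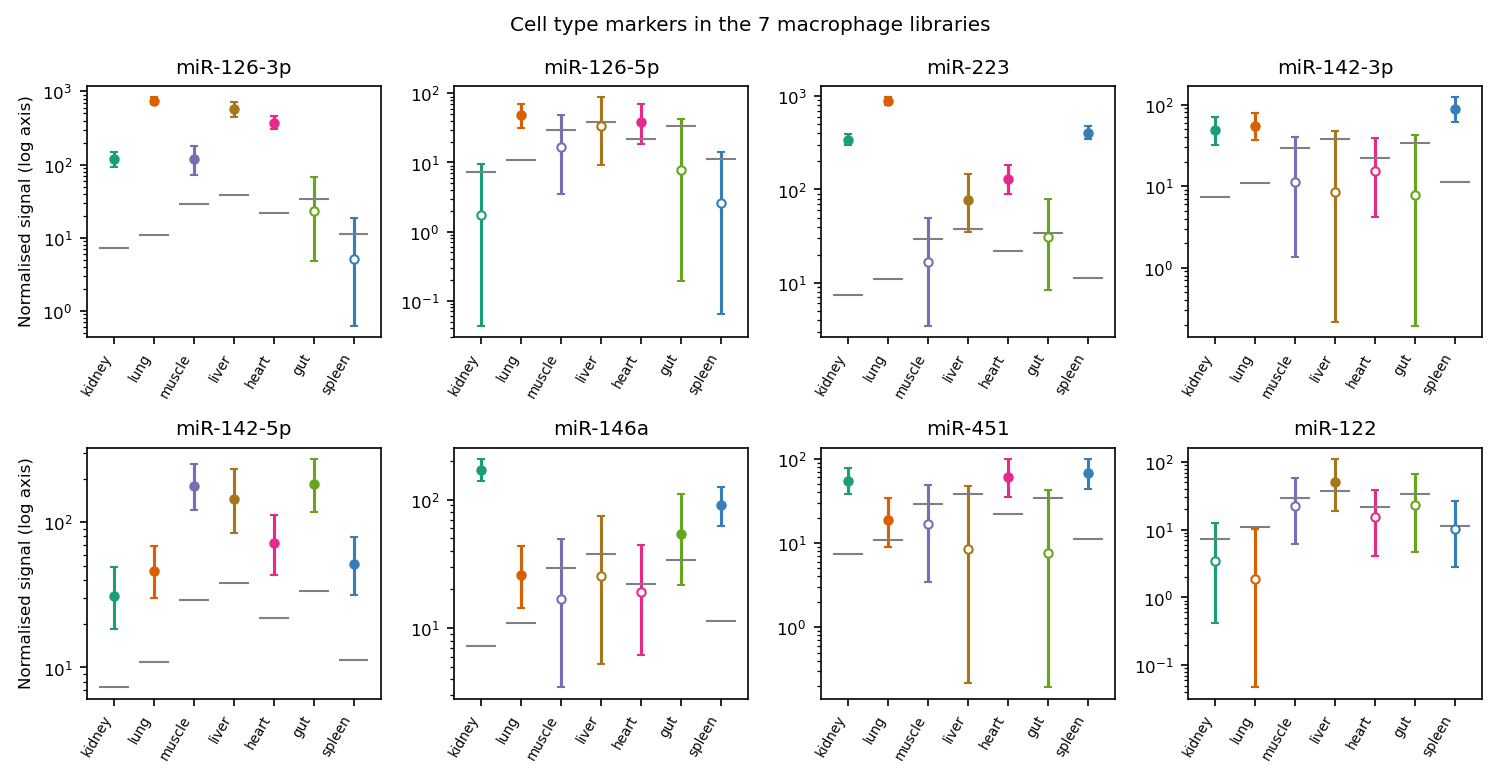
Signal of 8 cell type markers in the 7 macrophage libraries, on log axes of normalised signal. Bars are exact 95% counting intervals, grey lines the library's background limit, and open points lie at or under it; miR-126-3p is highest in lung (751 units) and under the limit in gut and spleen, and miR-223 is highest in lung (888) and under the limit in gut and muscle.

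Families differed in how far they were shared. All 9 let-7 members with a probe, a family that restrains proliferation and promotes the differentiated state, were above the limit in at least 1 organ, and 4 in all 7, beside 261 (46.1%) and 13 (2.3%) of the 566 miRNAs measured. The same 46.1% stands beside each count of family members above the limit somewhere. let-7a was highest in gut (338), against 185 in muscle, 138 in heart, 105 in spleen, 87.8 in kidney, 85.8 in lung and 34.1 in liver. let-7b was highest in kidney (199.6, with 142 in lung), let-7i in spleen (165, with 134 in lung), and miR-98 was above the limit in kidney alone (12.0). The summed let-7 signal was 1576 in lung, 614 in liver, 783 in gut, 825 in spleen, 1148 in kidney, 694 in muscle and 982 in heart.

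Of the 6 miR-15/16 members, 4 were above the limit somewhere, and miR-15a, miR-15b and miR-16 share the seed AGCAGCA. miR-15a had 172 units in spleen, 162 in lung and 158 in kidney, with 42.7 in liver, 42.0 in heart, and values under the limit in gut (30.7) and muscle (16.8). miR-15b was likewise highest in spleen (188), lung (134) and kidney (115), with 30.7 to 44.8 in the 4 others. For miR-15a and miR-15b, spleen, lung and kidney formed the upper group. miR-16 had no such group: from lung (201) to muscle (157) each neighbouring pair's interval included 1. Of the 10 members of the miR-17-92 cluster and its paralogues, 7 were above the limit somewhere. Beside the miR-20a and miR-20b probe, miR-25 had 154 units in spleen and 142 in lung, against 30.7 in gut and 34.1 in liver, both under their limits.

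All 3 miR-29 members, known for restraining collagen genes, were above the limit in lung, spleen and kidney and none in liver, gut or muscle, the organs with the smallest share of all miRNAs above the limit (11% to 12.9%, against 19.8% to 26.7%). The limits took part in this: miR-29c had 28.0 units in muscle, under the limit of 29.1, and 12.9 in spleen, above the limit of 11.3. miR-29a had 101.5 units in kidney, 72.7 in lung, 54.0 in spleen and 30.6 in heart. miR-181a, known from lymphocyte development, was above the limit in lung (162), spleen (105), kidney (92.9), liver (59.7) and heart (38.2). In the miR-99 and miR-125 families, 6 of 7 members were above it somewhere. miR-125a-5p was highest in lung (123) and under the limit in spleen (2.57, 1 count), whereas miR-125b-5p, which has the same seed, CCCUGAG, was highest in kidney (119) and at 11.2 in lung. miR-100 had 69.1 units in gut, 50.4 in muscle and 45.9 in heart, against 11.2 in lung (6 counts), and was under the limit in liver, spleen and kidney. Of the miR-30 family, 4 of 5 members were above the limit somewhere, at no more than 42.7 units, and of miR-10 and miR-196, 3 of 4, at no more than 33.6.

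The libraries fell into neighbours by their miRNA levels. Over the 167 miRNAs above the limit in at least 2 libraries, Pearson's r of log2 signal (values raised to the limits) was 0.91 for muscle and gut, 0.87 for kidney and spleen, 0.85 for muscle and heart and 0.80 for kidney and lung. It was lowest for liver and spleen, at 0.36. These values are across miRNAs, which are not independent, and each pair shares limits that differ with depth. Without the 13 shared miRNAs (154 left), kidney and spleen kept r = 0.83 and lung and heart 0.74, while muscle and gut had 0.64 and liver and gut -0.04. Muscle and liver had 0.67 with and 0.30 without the shared miRNAs. Taking these out leaves shallow libraries mostly at their raised limits, so a lower r there is no finding about an organ. Kidney and spleen had 98 miRNAs above the limit in both, 64.9% of those of kidney and 81.7% of those of spleen. Muscle and gut had 39 in both, 53.4% of those of muscle and 55.7% of those of gut.

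**Figure D5:**
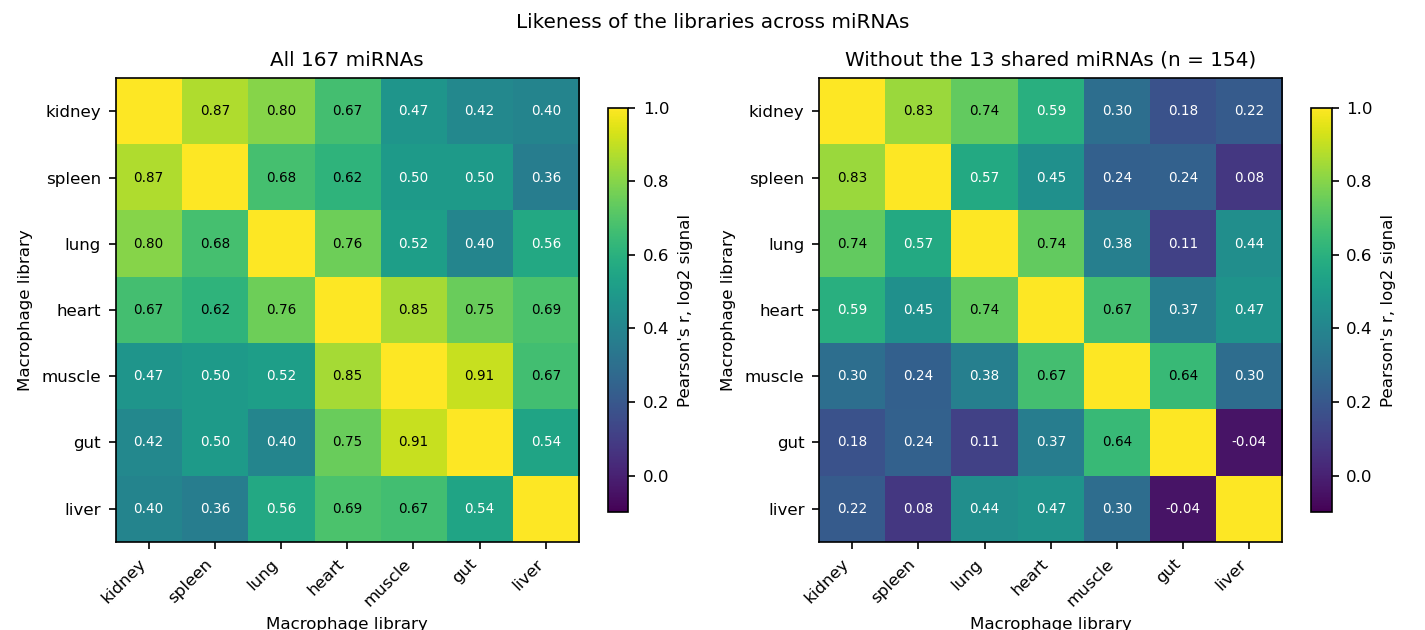
Pearson's r between the 7 libraries over log2 signal of the 167 miRNAs above the limit in at least 2 libraries (left) and of the 154 that remain without the 13 shared miRNAs (right). Each cell is a pair of organs; kidney and spleen stay at 0.83 in the right panel, and muscle and gut are at 0.64 there and at 0.91 in the left panel.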

How the data were processed

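The labels' protocols name the mirVana kit for the extraction of total RNA, which was measured with the nCounter mouse miRNA assay. The deposited values of the 7 libraries are a normalised signal: whole counts multiplied by 1 factor per library, to 2 decimals. The sources used here do not say how the authors set that factor. The counts were recovered from the steps between values, and 100% of values came out whole within 0.1 of a count. The lowest count was 1 in all 7 libraries, so 0 and 1 could not be separated. The other miRNA libraries of the same table, among them 12 whose deposited values are a score (scaled counts that the authors rounded), the custom gene panel and the array were not used here.

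Groups followed the sample titles. Each organ was 1 library, so no test was made and no p-value is given. The limit was the mean plus 2 SD of the 33 viral probes, and the 4 mRNA probes entered no call. Ratios of counts carry exact conditional binomial intervals, and single values exact Poisson intervals, both at 95%. Recovered totals of 1741 to 7148 counts set the precision. The text names up to 6 called miRNAs per organ by ratio, all shared miRNAs, the 10 with the widest range, those missing in 1 organ, the cell type markers and family members, and, outside that rule, the leading miRNAs of organs with no call. The members and lists were chosen with earlier results of these data known. Alternatives changed the limit, scaling, subtraction, fold, raising and libraries. Python 3.11.15, pandas 2.3.3, numpy 2.4.6, scipy 1.17.1 and matplotlib 3.10.9 were used.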

Additional observations from a re-analysis of the deposited data

Results flagged for a closer look

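The 4 mRNA probes of the panel enter no miRNA comparison, and each gave signal above the viral background. The Actb probe was above the limit in 6 of the 7 macrophage libraries, the B2m probe in 6, the Gapdh probe in 6 and the Rpl19 probe in 6. The missing library was gut for all 4, with 23.0, 30.7, 7.68 and 23.0 units for Actb, B2m, Gapdh and Rpl19 against a limit of 33.9. Elsewhere Gapdh ran from 23.1 units in spleen to 127 in lung, and Rpl19 from 67.2 in muscle to 474 in lung.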

How the results depend on the processing

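With 1 library per organ, organ cannot be told apart from animal, sort or run, and with 1741 to 7148 counts a miRNA under about 5 counts could not be told from background. No paired analysis was possible because each organ is 1 library. The cause of the changes below was not tested, except where the setting itself gives fewer or more calls. Counts of miRNAs called high in an organ (14 in all: lung 5, liver 5, gut 2, spleen 2) moved as follows. At 1.5-fold there were 45 (kidney 2, lung 10, liver 17, gut 9, spleen 7), and at 3-fold 1, in lung, with 0 in liver, gut and spleen. With the viral mean subtracted there were 23 (gut 5, spleen 6). With the interval of the ratio above 1 there were 24 (kidney 4, lung 11, gut 6, liver 0). With the other organs not raised to their limits there were 48 (muscle 6, liver 15, heart 4, gut 12, spleen 6). Scaling to the geometric mean of the shared miRNAs gave 22 (kidney 1, lung 3, liver 17, gut 0, spleen 1), and scaling to total signal gave 30 (kidney 2, liver 23, gut 0, spleen 1). Scaling to the total without miR-34c, chosen after seeing the data, gave 12 (kidney 1, lung 3, liver 2, gut 0, spleen 6). A limit at the mean plus 3 SD gave 9 calls (liver 1, spleen 1), and one at the highest viral probe also 9 (liver 1, spleen 1). With 1 limit for all libraries liver had 2. The 14 calls were all kept under subtraction, and 9 of 14 under each of the first 2 scalings.

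Numbers above the limit also moved. With the mean plus 3 SD they were 66 in lung, 41 in liver, 55 in heart and 43 in gut. With the highest viral probe they were 66 in lung, 35 in muscle, 30 in liver, 55 in heart and 43 in gut, and 8 miRNAs were shared by all 7. With 1 limit for all they were 43 in kidney, 35 in lung, 40 in heart and 52 in spleen, with 8 shared. Leaving out each library in turn gave 10 to 19 calls in all, 0 to 1 in kidney, 5 to 8 in lung, 5 to 9 in liver, 2 to 6 in gut, 2 to 4 in spleen, 0 in muscle and in heart, and 13 to 19 shared miRNAs. Gut had 6 calls without liver and 6 without muscle, liver had 9 without gut, and lung had 8 and spleen 4 without kidney. Kidney had 1 without lung, heart or spleen. Leaving out a library can only keep or add calls in the remaining organs and shared miRNAs, so it could not test the calls. Without gut and liver together, also chosen after seeing the data, 28 were shared, and muscle had 8 calls and spleen 5. The ranges of single miRNAs without gut, liver or both were chosen after seeing the data too.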

Other observations

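Of the 94 miRNAs above the limit in a single library, 23 were in kidney, 18 in heart, 16 in lung, 14 in spleen, 9 in liver, 8 in muscle and 6 in gut. miR-883b-3p was among those of gut (61.4 units, 8 counts) and miR-196b, encoded in a Hox cluster, among those of kidney (17.2 units, 10 counts). miR-34a, the p53-responsive relative of miR-34c, was above the limit in heart alone (22.9 units, 6 counts, limit 22.0). No library held such a miRNA at more than 11 counts.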
